A study of Homo sapiens with 4 samples.

Results

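The genes of the constitutive proteasome were examined in HT-29 and NCM460 cells with and without sturgeon chondroitin sulfate (SCS). Members were the rows of the deposited table annotated as protein coding whose symbols start with PSMA to PSMG and a number, without the immunoproteasome subunits PSMB8, PSMB9 and PSMB10. This rule took 47 of 64962 rows, which carry 45 gene names. Fragments were found for 43 of these names. PSMA8, a subunit of the testis, and PSMB11, a subunit of the thymus, were at 0 in all 4 libraries, and second rows of PSMB3 and PSMC4 were also at 0. The rows of PSMB3 and PSMC4 that held fragments carry gene identifiers outside the GENCODE 29 primary assembly. A count of 0 allows up to 3 fragments. In CPM, fragments relative to the scaled library size, this is 1.47 without and 1.25 with SCS for HT-29, and 3.85 without and 2.77 with SCS for NCM460 cells. The 43 genes were 7 α subunits and 6 β subunits of the core particle, 6 ATPases and 11 non-ATPase subunits of the regulatory particle, 4 activators, the inhibitor PSMF1 and 7 assembly chaperones. The last gene, PSMC3IP, shares only the name, since it encodes a factor of meiotic recombination. The core subunit PSMB1 was not a member because the table annotates it as a processed transcript. It had 130 and 147 fragments in HT-29 cells without and with SCS, and NCM460 cells gave 47 and 81. All counts, medians and sums of the β subunits or β ring below leave PSMB1 out.

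HT-29 is an established line from a human colorectal adenocarcinoma, and NCM460 is a human colon line that the study used as normal colon cells. Each line was sequenced as bulk RNA, as an untreated control and after exposure to SCS at 100 μg/mL for 24 h, in medium with fetal bovine serum. The study's methods give NCM460 cells a larger share of serum than HT-29 cells, so line and medium cannot be told apart where the lines are compared. With 1 library for each of the 4 conditions, no difference between conditions has a replicate check and no p-value is given. In such bulk libraries, fewer cells that express a gene and less RNA per cell cannot be told apart.

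The proteasome degrades proteins marked with ubiquitin. Rings of α and β subunits form the core particle, a barrel whose proteolytic sites lie on its inner β rings. The regulatory particle binds ubiquitin chains, removes them, unfolds the substrate with its ring of ATPases and feeds it into the core, and other activators can cap the core in its place. Assembly chaperones guide the rings together and leave the finished particle. Transcription of the subunits is known to be raised together by NFE2L1 (NRF1), which binds antioxidant response elements in their promoters.

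Promoter sequences were searched for the core letters of this element because it is the known shared control site of the subunits. RefSeq promoters of GRCh38.p14 were given for 38 of the 43 genes, with 1 or more transcript starts a gene, and the 250 bases before each start were read on both strands for TGACNNNGC. The letters were found in 12 of the 47 windows of these genes (25.5%) and in 3830 of the 35116 windows of all genes (10.9%). The 12 genes with a match were PSMA4, PSMB3, PSMC5, PSMD3, PSMD12, PSMD5, PSMD9, PSME1, PSME2, PSME4, PSMG1 and PSMG2. The matches of core and regulatory particle subunits are shown 5′ to 3′ on the strand of the gene with 10 bases on each side and the match in capitals. In PSMC5 the letters lie on the opposite strand, so the capitals are their reverse complement.
PSMA4, chr15:78540650-78540678, plus strand: gtgggcacgaTGACTCTGCaccgcctcct
PSMB3, chr17:38752627-38752655, plus strand: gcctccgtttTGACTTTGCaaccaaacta
PSMC5, chr17:63827654-63827682, plus strand: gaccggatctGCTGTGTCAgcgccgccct
PSMD3, chr17:39980760-39980788, plus strand: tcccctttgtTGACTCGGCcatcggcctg
PSMD12, chr17:67366724-67366752, minus strand: agacaaaaccTGACGCTGCaggctggagt
The capitals start 126, 104, 57, 37 and 165 bases before a RefSeq transcript start in PSMA4, PSMB3, PSMC5, PSMD3 and PSMD12. In PSMA4 and PSMC5 this is not the outermost start, so the match lies inside the gene as GENCODE 29 draws it. A match is only a run of letters, and binding was not measured.

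Whole fragments were recovered from the deposited scaled counts, and the libraries held 1061700 (HT-29 control), 1383424 (HT-29 treated), 507692 (NCM460 control) and 621582 (NCM460 treated) nuclear fragments. All lists of 4 values keep this order of libraries. The mitochondrial genome took 35.8%, 13.8%, 62.3% and 46.3% of all fragments. Of 5 epithelial markers, 5 were above 3 fragments in each library. Of 6 markers of colon epithelium, 4 were above 3 fragments in HT-29 cells and 1 in NCM460 cells, in which VIL1, LGALS4, CEACAM5 and KRT20 were at 0. CDX2 went the other way, with 0, 0, 14 and 12 fragments, and CDX1 was at 0 in every library. All 4 leukocyte markers were at 0, and no endothelial marker was above 3 fragments. Of 6 mesenchymal markers, the libraries held 1, 2, 4 and 3 above 3 fragments. SPARC, which had 0, 0, 65 and 102 fragments, was the most abundant of them.

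Over all 43 genes, the levels lay closest together in HT-29 cells with SCS and furthest apart in the NCM460 control. The members took 0.469%, 0.387%, 0.390% and 0.437% of the nuclear fragments. By deposited FPKM, a level per transcript length, the median of the 43 genes was 28.6, 22.4, 42.3 and 26.6. The highest gene stood 29.6-fold, 22.2-fold, 64.5-fold and 36.6-fold above the lowest. The lowest was PSMC3IP, which is not a subunit, except in the NCM460 control, where it was PSMD5 with 6 fragments. This spread widened as nuclear depth fell from library to library, and the part of depth was not tested. Among the 30 core and regulatory particle subunits the coefficient of variation differed by particle. It was 69.5%, 53.3%, 67.3% and 47.1% in the core and 60.7%, 60.3%, 101% and 71.1% in the regulatory particle, so the regulatory particle of the NCM460 control was the least even. The core was most even in NCM460 cells with SCS. Across these 30 genes, which share the libraries, Spearman's rho of the levels was 0.90 between both HT-29 libraries, 0.87 between both NCM460 libraries and 0.64 between the controls.

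**Figure D1:**
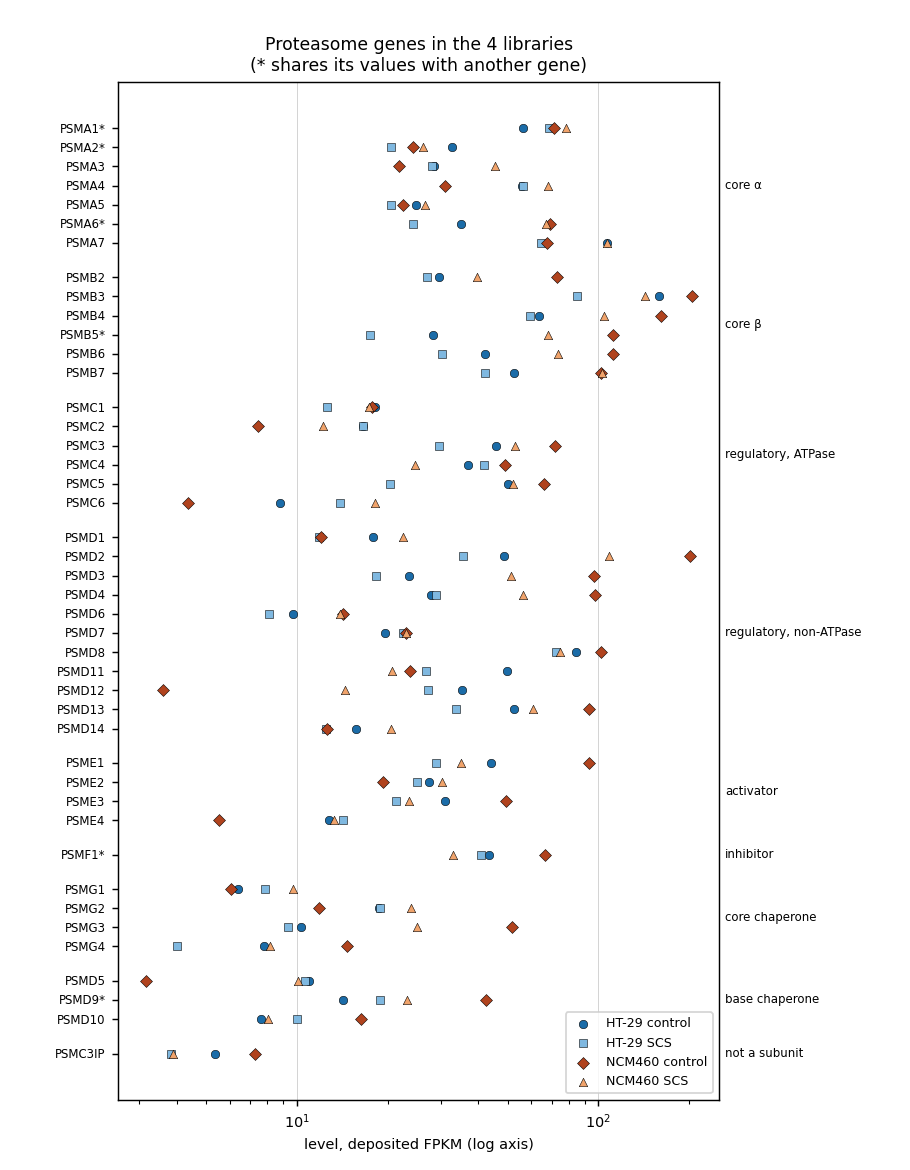
Deposited FPKM (log axis) of the 43 proteasome genes, grouped by role, with 1 symbol per library and 1 library per condition. PSMB3 lies highest in all 4 libraries, at 158 in the HT-29 control and 204 in the NCM460 control, while PSMD12 lies at 3.60 in the NCM460 control and 35.2 in the HT-29 control.

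In the core, PSMB3, a structural β subunit, had the highest FPKM of all members in each library, at 158, 84.9, 204 and 143. PSMA7 stood highest of the α subunits in the HT-29 control and NCM460 with SCS, with FPKM of 107, 64.7, 67.3 and 107. The low end of the α ring was held by PSMA5 in the HT-29 control (FPKM of 24.8, 20.5, 22.5 and 26.6), by PSMA2 in both SCS libraries (32.7, 20.5, 24.2 and 26.1) and by PSMA3 in the NCM460 control (28.6, 28.1, 21.8 and 45.5). The catalytic subunits of the core were at different levels. PSMB5, with the chymotrypsin-like site, had FPKM of 28.2, 17.5, 111 and 68.0. PSMB6, with the caspase-like site, had 41.9, 30.4, 112 and 73.4. PSMB7, with the trypsin-like site, had 52.4, 41.9, 102 and 102. PSMB5 was thus the lowest β subunit by FPKM in HT-29 cells, while PSMB2, a structural subunit, was the lowest in NCM460 cells (29.5, 26.9, 73.2 and 39.7).

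In the regulatory particle, PSMD8, a lid subunit, had the highest FPKM in HT-29 cells, at 84.0, 72.1, 102 and 74.8. PSMD2, the large scaffold subunit of the base, led in NCM460 cells, at 48.8, 35.7, 201 and 108. The lowest non-ATPase subunit was PSMD6, a lid subunit (9.70, 8.12, 14.3 and 13.9), except in the NCM460 control, where PSMD12 of the lid was lower (35.2, 27.3, 3.60 and 14.4). Among the ATPases, PSMC6 was lowest in both controls (8.82, 13.9, 4.36 and 18.2), while PSMC1 (18.2, 12.6, 17.8 and 17.4) and PSMC2 (16.5, 16.6, 7.43 and 12.2) were lowest in HT-29 and NCM460 cells with SCS. PSMC3 was highest in both NCM460 libraries (45.8, 29.6, 72.0 and 52.8), PSMC5 in the HT-29 control (50.3, 20.3, 65.8 and 52.0) and PSMC4 in HT-29 cells with SCS (37.0, 41.9, 49.0 and 24.7). PSME1, which pairs with PSME2 in the interferon-inducible activator, had the highest FPKM of the activators in each library (44.2, 28.9, 93.0 and 35.0), and PSME4, a large nuclear activator, had the lowest (12.8, 14.2, 5.51 and 13.3).

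Among the assembly chaperones, PSMG2 led those of the core particle in both HT-29 libraries (FPKM of 18.8, 18.9, 11.8 and 24.0) and PSMG3 in both NCM460 libraries (10.3, 9.36, 51.8 and 25.0). PSMG1 (6.41, 7.83, 6.08 and 9.75) was the lowest of them in both controls and PSMG4 (7.78, 4.0, 14.7 and 8.13) in both SCS libraries. Of the chaperones of the regulatory base, PSMD9 was highest in all libraries (14.2, 18.9, 42.3 and 23.2), and PSMD10 (7.63, 9.99, 16.3 and 8.05) or PSMD5 (10.998, 10.7, 3.16 and 10.1) was lowest. PSMC3IP had 18, 20, 5 and 6 fragments, and its log2 fold change with SCS was -0.07 in HT-29 and -0.15 in NCM460 cells.

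Libraries were scaled by TMM factors, and each log2 fold change compares CPM after 2 fragments were added as a prior count and is followed by its 95% counting interval in parentheses, which covers counting error only. A gene was called higher ("rose") or lower ("fell") when it differed by more than 1.5-fold and the interval excluded 0. All 43 genes passed the minimum mean of 1 CPM in each comparison, and the lowest count was 4 fragments, for PSMC6 in the NCM460 control. PSMA1, PSMA2, PSMA6, PSMB5, PSMD9 and PSMF1 overlap other genes and are listed with the same values as COPB1, C7orf25, KIAA0391, AL132780.1, WDR66 and C20orf202, so their fragments are not certain to come from the proteasome gene alone. Of 31 pseudogene rows of these genes, 5 were above 0, with 9 fragments in all.

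With SCS in HT-29 cells, most proteasome genes stayed close to their control level. Of the 43 genes, 2 rose (4.65%), where 16.8% of 12168 loci tested rose, and 4 fell (9.3%), where 14.8% of loci fell. Both members that rose share their values with another gene. The median log2 fold change was -0.12, beside 0.07 over all loci, and the values ran from -0.76 to 0.80. Their standard deviation was 0.38, and that of all loci 0.92. With the trend on transcript GC content subtracted, 2 members were called higher, where 16.2% of loci were, and 2 lower, where 14.3% were.

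The lowest value was that of PSMB3, which fell from 208 to 143 fragments (log2 fold change -0.76, -1.09 to -0.46). PSMD11, a lid subunit, fell from 315 to 233, with -0.66 (-0.92 to -0.42). PSMC5, an ATPase, fell from 139 to 104, with -0.64 (-1.03 to -0.27). PSMD2 fell from 310 to 235, with -0.63 (-0.88 to -0.38). None of the 4 was called lower with library totals, mitochondrial fragments included, as the only scaling (total counts only), which moved the median of all loci from 0.07 to 0.31. The calls of PSMC5 and PSMD2 also ended with either GC trend subtracted, at -0.54 and -0.51 for the transcript trend. The members that rose were PSMA1, from 276 to 513 fragments (0.66, 0.45 to 0.88), and PSMD9, from 30 to 63 (0.80, 0.19 to 1.52). PSMA1 was at 0.54 and not called with the trend on coding GC subtracted, and it also lost the call with nuclear totals only and by FPKM (0.45). PSMD9 lost it by FPKM (0.55) and after thinning to equal nuclear depth, PSMD11 and PSMC5 after thinning, and PSMD2 by FPKM (-0.28).

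By group, the α ring had a median of 0.00 in HT-29 cells, with PSMA7 lowest at -0.43 (183 and 159 fragments). Of the 6 β subunits, 5 were below 0, with a median of -0.24, or 2 of 6 and 0.032 by total counts only, and PSMB4 was highest at 0.03 (102 and 122 fragments). PSMB1, outside the rule, was at -0.05 (-0.41 to 0.30). The catalytic subunits were not called. PSMB5 had 67 and 55 fragments (-0.50, -1.06 to 0.02), PSMB6 had 64 and 63 (-0.25, -0.78 to 0.27), and PSMB7 had 110 and 119 (-0.12, -0.50 to 0.27). The regulatory particle had a median of -0.28, with 11 of 17 subunits below 0, or 9 of 17 by total counts only. Its highest ATPase was PSMC6, with 32 and 56 fragments (0.55, -0.08 to 1.25), and its highest non-ATPase subunit was PSMD4, a ubiquitin receptor, with 86 and 116 (0.20, -0.22 to 0.62). Of the activators, PSME4 had 169 and 276 fragments (0.47, 0.19 to 0.76) and PSME3, the nuclear activator, 207 and 167 (-0.54, -0.84 to -0.24), both under 1.5-fold. PSMF1 had 162 and 182 fragments (-0.06, -0.38 to 0.25). Among the core chaperones, PSMG1 had 21 and 19 fragments (-0.34, -1.35 to 0.59) and PSMG3 21 and 28 (0.17, -0.69 to 1.07).

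**Figure D2:**
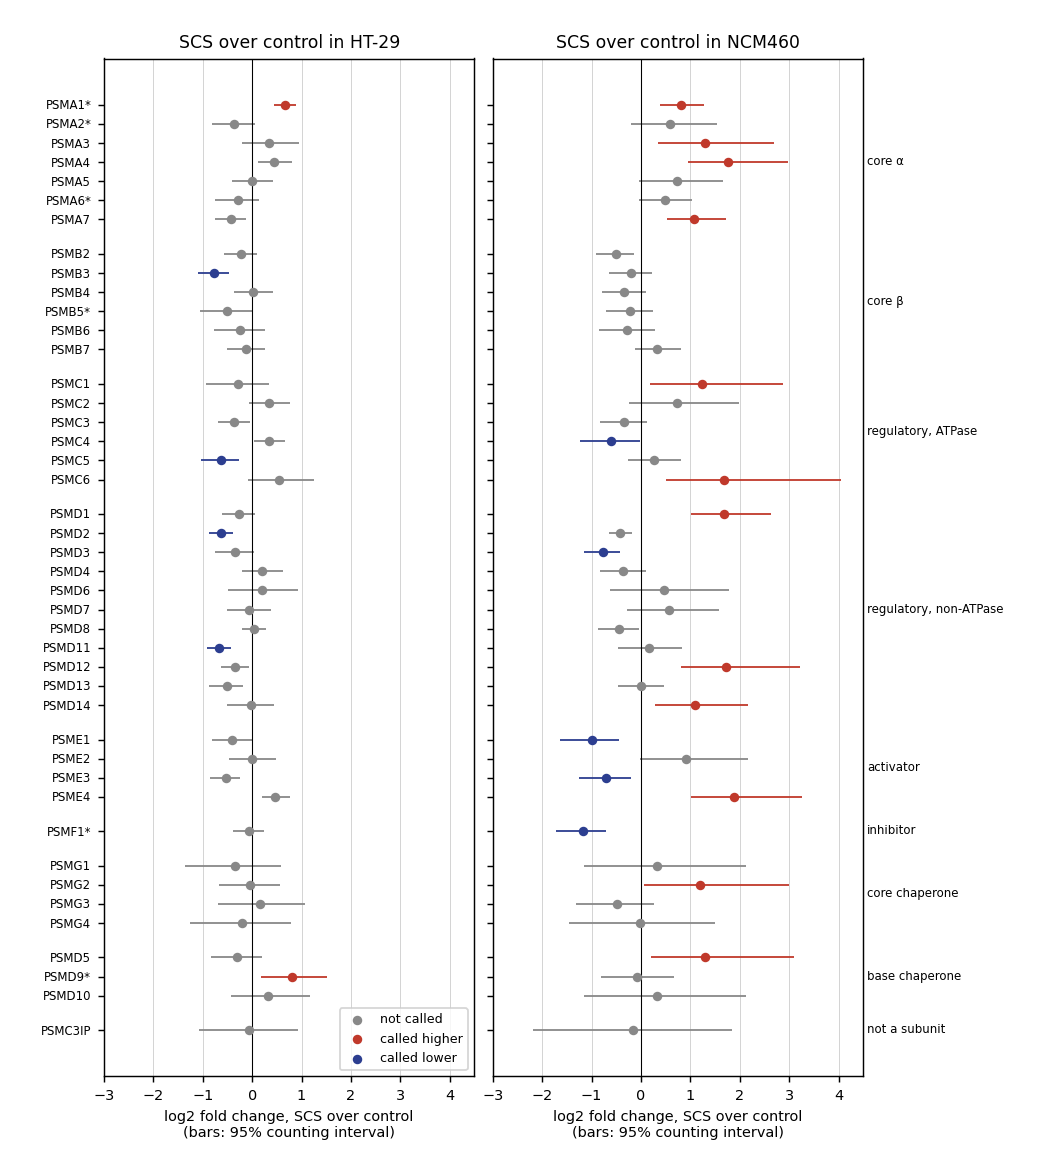
Log2 fold change of SCS over control for each proteasome gene in HT-29 and NCM460 cells (TMM scaling, 1 library per condition), with bars for the 95% counting interval and colours for calls. Calls in HT-29 cells number 2 higher and 4 lower, those in NCM460 cells 12 higher and 5 lower, and all 7 α subunits lie above 0 in NCM460 cells, or 4 of 7 with a GC trend subtracted. By total counts only, no member is called lower in either line, beside 1116 of 12658 loci in HT-29 and 248 of 12096 in NCM460 cells. Asterisks mark genes that share their values with another gene.

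With SCS in NCM460 cells, more proteasome genes rose than fell. Of the 43 genes, 12 rose (27.9%), where 15.3% of 12657 loci tested rose, and 5 fell (11.6%), where 13.7% of loci fell. The median was 0.32, beside 0.03 over all loci, and the standard deviation was 0.82, beside 0.99. The log2 fold changes followed the GC content of the genes, as described below. With the trend on transcript GC subtracted, 7 rose and 4 fell, where 6.6% and 5.5% of loci did, and the median was 0.13. With a trend on coding GC subtracted, an alternative chosen after the values were seen, 2 rose and 4 fell, where 7.71% and 6.6% of loci did. The median was then 0.02, and the standard deviation 0.51. Values with these trends subtracted are given as transcript-adjusted and coding-adjusted.

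All 7 subunits of the α ring had a log2 fold change above 0 in NCM460 cells, or 4 of 7 with either GC trend subtracted, and the values ran from 0.48 for PSMA6 to 1.75 for PSMA4, with a median of 0.81. PSMA4 rose from 11 to 57 fragments (0.95 to 2.98), PSMA3 from 9 to 34 (1.29, 0.35 to 2.69), PSMA7 from 33 to 99 (1.07, 0.53 to 1.73) and PSMA1 from 62 to 153 (0.81, 0.39 to 1.28). PSMA2 had 18 and 39 fragments, PSMA5 18 and 43, and PSMA6 46 and 90, and these were not called. PSMA7 was called higher in each setting tried, at 1.40 transcript-adjusted and 1.07 coding-adjusted. PSMA4 was called at 0.97 transcript-adjusted and not at 0.63 coding-adjusted, and PSMA3 was called in neither (0.38 and 0.18). PSMA1 was at 0.47 transcript-adjusted and changed sign to -0.17 coding-adjusted. The median of the ring was 0.38 transcript-adjusted and 0.024 coding-adjusted.

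Of the 6 β subunits, 5 were below 0 with a median of -0.25, or none below 0 with a median of 0.42 by total counts only, and none was called lower. PSMB2 was lowest, with 115 and 111 fragments (-0.52, -0.91 to -0.14), and was called lower transcript-adjusted (-1.15) and coding-adjusted (-0.75). PSMB5 had 72 and 85 fragments (-0.23, -0.70 to 0.24), PSMB6 52 and 59 (-0.28, -0.85 to 0.27) and PSMB7 62 and 109 (0.33, -0.12 to 0.81). PSMB3 had 82 and 98 fragments (-0.21, -0.65 to 0.22) and PSMB4 84 and 92 (-0.33, -0.78 to 0.10). The median of the ring was 0.07 with either trend subtracted. PSMB1, outside the rule, was at 0.30 (-0.22 to 0.86) and 0.18 transcript-adjusted, and was not called.

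In the regulatory particle, 5 of 17 subunits rose and 2 fell in NCM460 cells, beside 15.3% and 13.7% of all loci. Transcript-adjusted, 2 rose and none fell, beside 6.6% and 5.5% of loci. Coding-adjusted, 1 rose and none fell, beside 7.71% and 6.6%. PSMD12 rose from 8 to 42 fragments (1.72, 0.81 to 3.22), and PSMD1, a scaffold subunit of the base, from 17 to 81 (1.68, 1.01 to 2.63). PSMC6 rose from 4 to 23 (1.68, 0.50 to 4.04) and PSMC1, also an ATPase, from 7 to 26 (1.23, 0.18 to 2.87). PSMD14, the deubiquitinase of the lid, rose from 14 to 44 (1.09, 0.28 to 2.16). Of these, PSMD1 was called in each setting tried, at 1.12 transcript-adjusted and 0.70 coding-adjusted. PSMC1 was called transcript-adjusted (1.16) and not coding-adjusted (0.49). PSMD12, PSMC6 and PSMD14 were called with neither trend subtracted, at 0.63, 0.55 and 0.65 transcript-adjusted. PSMD3 of the lid fell from 139 to 112 fragments (-0.77, -1.16 to -0.42) and PSMC4, an ATPase, from 51 to 46 (-0.60, -1.23 to -0.02). Both lost the call with either trend subtracted, at -0.17 and -0.14 transcript-adjusted, and PSMC4 changed sign to 0.07 by total counts only.

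The activators split in NCM460 cells. PSME4 rose from 9 to 52 fragments (1.87, 1.02 to 3.26), while PSME1 fell from 62 to 42 (-0.996, -1.64 to -0.45) and PSME3 from 68 to 57 (-0.71, -1.26 to -0.20). PSME2, the partner of PSME1, had 11 and 31 fragments (0.92, -0.01 to 2.16). PSME1 and PSME3 remained called lower with either trend subtracted. PSME1 was at -0.66 transcript-adjusted and -0.85 coding-adjusted. PSME3 was at -0.74 and -1.58, the latter the lowest coding-adjusted value of the members, and lost the call with nuclear totals only. PSME4 was at 1.03 transcript-adjusted and, without a call, at 0.85 coding-adjusted. PSMF1, an inhibitor of the core, had the lowest value of all members and fell from 92 to 55 fragments (-1.18, -1.72 to -0.72), with -1.39 transcript-adjusted and -0.77 coding-adjusted. By total counts only, which moved the median of all loci from 0.03 to 0.63, none of the 5 members that fell was called lower.

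Of the assembly chaperones, PSMD5 rose from 6 to 24 fragments (1.30, 0.20 to 3.11) and PSMG2 from 6 to 22 (1.19, 0.05 to 2.99). PSMD5 was not called with either trend subtracted (0.43 and 0.50), and PSMG2 was called at 1.45 transcript-adjusted and not at 0.19 coding-adjusted. PSMD9 had 29 and 38 fragments (-0.08), PSMD10 6 and 11 (0.32), PSMG1 6 and 11 (0.32), PSMG3 30 and 29 (-0.49) and PSMG4 8 and 11 (-0.01), none of them called. PSMD10 and PSMG1 share an interval of -1.16 to 2.12, so changes within it were not detectable at this depth.

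The order of the NCM460 values followed base composition closely. Spearman's rho between the log2 fold change and the GC content of the coding sequence was -0.80 over the 43 members and -0.95 over the 17 regulatory particle subunits, beside -0.64 over 11189 loci. In HT-29 cells it was -0.17 over the 43 members, -0.21 over the 17 regulatory particle subunits and -0.13 over 10747 loci. Over the 13 core subunits it was -0.60 in HT-29 cells and -0.74 in NCM460 cells. Genes share their libraries and are not independent replicates. The groups of subunits differ in this property. The α subunits have a median coding GC of 43.1%, from 40.1% to 52.2%, and the β subunits one of 54.9%, from 50.1% to 57.5%. Of the 21 members with a transcript GC below the median of the members, 10 rose and 1 fell with SCS in NCM460 cells, and of the other 22, 2 rose and 4 fell. Over all loci 15.3% rose and 13.7% fell, and loci of like GC were not counted apart. The values of a member thus moved with its GC content in this line, and the source of the GC trend was not tested.

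Stretches of 90 bases from the middle of the coding sequence are shown for α subunits low in GC (PSMA4, PSMA3), for the member highest in coding GC (PSMD8) and for PSMA7, whose rise in NCM460 cells was the largest of the coding-adjusted values. They are from GENCODE 29 transcripts on GRCh38, 5′ to 3′, with G and C in capitals.
PSMA4, coding bases 346 to 435: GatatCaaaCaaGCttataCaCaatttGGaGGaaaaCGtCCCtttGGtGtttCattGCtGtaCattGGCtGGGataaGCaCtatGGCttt
PSMA3, coding bases 337 to 426: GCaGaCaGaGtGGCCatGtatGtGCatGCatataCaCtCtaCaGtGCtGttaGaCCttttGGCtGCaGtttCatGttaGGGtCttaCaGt
PSMD8, coding bases 481 to 570: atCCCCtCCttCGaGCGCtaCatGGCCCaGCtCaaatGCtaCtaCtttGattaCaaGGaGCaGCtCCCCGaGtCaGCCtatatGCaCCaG
PSMA7, coding bases 328 to 417: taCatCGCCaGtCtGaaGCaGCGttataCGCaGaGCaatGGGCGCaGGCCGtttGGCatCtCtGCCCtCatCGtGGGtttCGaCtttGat
G and C make up 36, 41, 48 and 49 of the 90 bases. Over the whole coding sequence GC is 40.1% in PSMA4 (chromosome 15, 78540405 to 78552419, plus strand), 40.4% in PSMA3 (chromosome 14, 58244831 to 58272012, plus strand), 59.4% in PSMD8 (chromosome 19, 38374536 to 38383824, plus strand) and 52.2% in PSMA7 (chromosome 20, 62136735 to 62143440, minus strand). PSMA4 and PSMA3 rose with SCS in NCM460 cells before this trend was subtracted, PSMD8 had 102 and 103 fragments (-0.45, -0.87 to -0.05), and PSMA7 rose although its coding GC is above the median of the members, which is 49.2%.

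**Figure D3:**
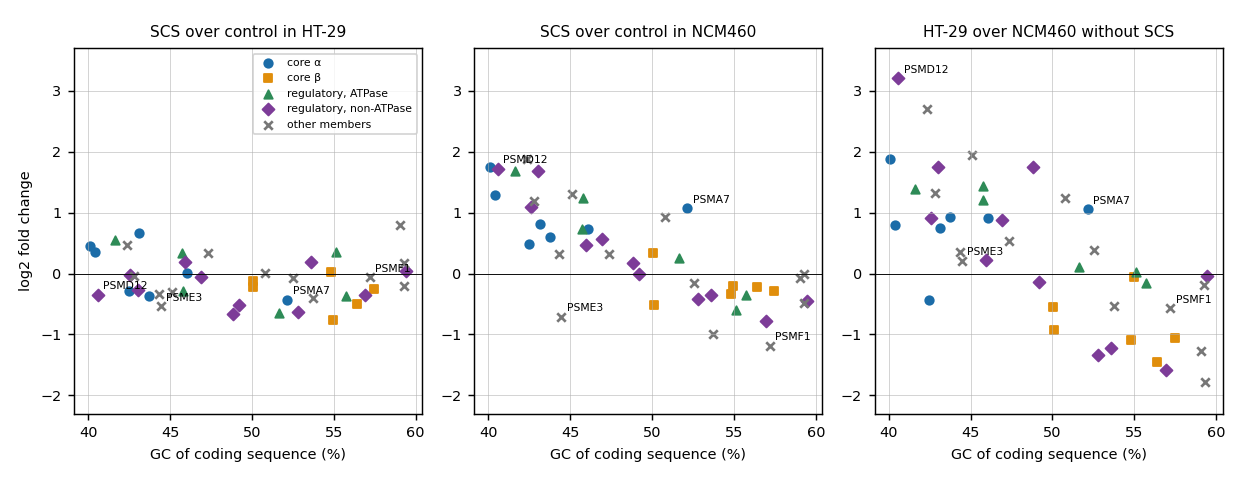
Log2 fold change of each proteasome gene against the GC content of its coding sequence for SCS over control in HT-29 cells, SCS over control in NCM460 cells and HT-29 over NCM460 without SCS (TMM scaling, linear axes). The points slope down in NCM460 cells (rho of -0.80 over 43 genes) and between the lines (-0.75), which share the NCM460 control. Over all 43 genes they are nearly flat in HT-29 cells (-0.17), where the 13 core subunits alone slope down (-0.60). PSMA7 and PSME3 lie off the slope in NCM460 cells.

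The response of HT-29 cells minus that of NCM460 cells was taken for each member, with a 95% Wald interval of counting error. The interval lay below 0 for 13 members, beside 17.7% of 10849 loci tested in both lines, above 0 for 3, beside 14.5% of these loci, and included 0 for 27. The largest difference was that of PSMD12, at -2.20 (-3.29 to -1.10), followed by PSMD1 at -2.02 (-2.84 to -1.21), PSMD5 at -1.76 (-3.10 to -0.42) and PSMC1 at -1.64 (-2.95 to -0.33). PSMA7 had 183, 159, 33 and 99 fragments and a difference of -1.53 (-2.17 to -0.89). PSMF1 had the largest difference above 0, 1.15 (0.58 to 1.71), followed by PSMC4, with 137, 205, 51 and 46 fragments, at 0.97 (0.32 to 1.62). The median coding GC was 43.7% among the 13 members and 57.2% among the 3, so these differences ran along GC content as well. Only PSMA1, whose values are those of COPB1, rose in both lines, and coding-adjusted it was called in neither (0.54 and -0.17). No member fell in both, and none was called in opposite directions. Such overlaps were not counted over all loci, so these counts have no background.

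Without SCS, 5 of 7 α subunits were called higher and 4 of 6 β subunits lower in HT-29 than in NCM460 cells. The median of the α ring was 0.90 and turned to -0.23 transcript-adjusted and -0.15 coding-adjusted, with 4 of 7 subunits below 0 in both. That of the β ring was -0.996, with -0.67 and -0.79 so adjusted, and turned to 0.077 by total counts only. Of the 43 genes, 17 were higher in HT-29 (39.5%), where 25.3% of 12691 loci were, and 9 were lower (20.9%), where 23.1% of loci were. This comparison uses the same NCM460 control as the SCS response of NCM460 cells. The median was 0.22, beside 0.10 over all loci. Transcript-adjusted, 9 members were higher and 10 lower, where 20.5% and 17.2% of loci were, and coding-adjusted 6 were higher and 10 lower, where 22.7% and 19% of loci were.

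PSMD12 differed most, with 218 fragments in the HT-29 control and 8 in the NCM460 control, or 3.21 (2.37 to 4.60) on the log2 scale. PSME4 had 169 and 9 fragments (2.70, 1.88 to 3.99), and PSMD11 315 and 35 (1.74, 1.27 to 2.32). PSMD12, PSME4, PSMD11, PSME2 and PSMA7 were called higher in HT-29 cells in each setting tried. PSMD12 was at 1.901 transcript-adjusted and 1.93 coding-adjusted, PSME4 at 1.71 and 1.499, and PSMD11 at 1.63 and 1.33. PSME2 had 72 and 11 fragments (1.24, 0.39 to 2.38), with 1.93 and 1.08 after these adjustments, and PSMA7 183 and 33 (1.05, 0.54 to 1.66), with 1.47 and 1.06. Other α subunits called higher lost the call in at least 1 setting. PSMA4, with 114 and 11 fragments (1.88, 1.09 to 3.02), was at 0.59 coding-adjusted, and PSMA2, with 93 and 18 (0.93, 0.24 to 1.79), was at -0.23 transcript-adjusted. PSMA6 was the only α subunit below 0 before adjustment, with 89 and 46 fragments (-0.43, -0.97 to 0.10), and was called lower transcript-adjusted (-1.02) and coding-adjusted (-1.62). PSMC2 was the highest ATPase, with 83 and 11 (1.43, 0.61 to 2.58), and lost the call at 0.19 transcript-adjusted and 0.57 coding-adjusted. PSMC1, with 46 and 7 fragments, was then the highest ATPase transcript-adjusted, at 1.20. PSMC3 was the lowest, with 169 and 72 (-0.16, -0.57 to 0.26). Of the chaperones, PSMD5 had 69 and 6 fragments (1.95, 0.94 to 3.63) and PSMG2 44 and 6 (1.33, 0.25 to 3.003), and both lost the call coding-adjusted, at 1.01 and 0.16.

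All 6 β subunits among the members were below 0 in this comparison, or 2 of 6 by total counts only. PSMB1, outside the rule, was not below 0, at 0.07 (-0.42 to 0.59) and 0.01 transcript-adjusted. PSMB5 had 67 fragments in the HT-29 control and 72 in the NCM460 control (-1.46, -1.999 to -0.997), PSMB4 102 and 84 (-1.09, -1.54 to -0.68), PSMB6 64 and 52 (-1.06, -1.64 to -0.54) and PSMB2 157 and 115 (-0.93, -1.30 to -0.58). PSMB2, PSMB4 and PSMB5 remained called lower with either trend subtracted, at -1.65, -0.77 and -1.13 transcript-adjusted, and PSMB6 did not (-0.57 and -0.50). Of the regulatory particle, PSMD3 had 120 and 139 fragments (-1.58, -1.97 to -1.24), PSMD2 310 and 300 (-1.34, -1.58 to -1.11) and PSMD4 86 and 78 (-1.23, -1.71 to -0.79), which also remained called lower with either trend. PSMG3, a core chaperone, was lowest, with 21 and 30 fragments (-1.77, -2.79 to -1.06). By total counts only, which moved the median of all loci from 0.10 to 1.13, none of the 9 members was called lower, and PSMB2 (0.15) and PSMB6 (0.0035) were no longer below 0.

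The share of the core particle in proteasome fragments was compared between libraries because it does not depend on their scaling. The core particle took 39.8% of the fragments of core and regulatory particle in the HT-29 control (exact binomial interval 38.3 to 41.3) and 43.7% with SCS (42.2 to 45.2). In NCM460 cells it took 40.4% (38.01 to 42.8) and 45.9% (43.8 to 47.9). The difference in HT-29 cells rested on PSMA1, whose values are those of COPB1. Without PSMA1, an alternative chosen after the values were seen, the shares were 35.4% (33.8 to 36.9) and 35.96% (34.4 to 37.5) in HT-29 cells. For NCM460 cells they were 38.1% (35.7 to 40.5) and 42.1% (39.99 to 44.2). The intervals overlap in both lines, but each belongs to 1 share, so the overlap does not measure the difference, which was given no interval. Without all members that share values, they were 30.8% and 31.9% in HT-29 cells and 32.2% and 35.8% for NCM460. In HT-29 cells the summed core went from 1597 to 1856 fragments, or -0.02 (-0.11 to 0.08) on the log2 scale and 0.26 by total counts only, and the summed regulatory particle from 2414 to 2392, with -0.25 (-0.33 to -0.16), or 0.03 by total counts only. In NCM460 cells the α ring went from 197 to 515 fragments, 1.88-fold (1.59 to 2.23), and the β ring from 467 to 554, 0.854-fold (0.754 to 0.968), with log2 values of 0.91 and -0.23, the latter 0.47 by total counts only. PSMA1, PSMA2 and PSMA6, which share values with other genes, gave 62, 18 and 46 of the 197 α fragments. With SCS they gave 153, 39 and 90 of the 515. Summed over all 43 genes the log2 fold change was -0.13 (-0.18 to -0.07) in HT-29 cells, or 0.15 by total counts only, and -0.02 (-0.10 to 0.07) in NCM460 cells, or 0.68 by total counts only. The α and β subunits differ in GC content, and the part of GC in the sums was not tested.

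**Figure D4:**
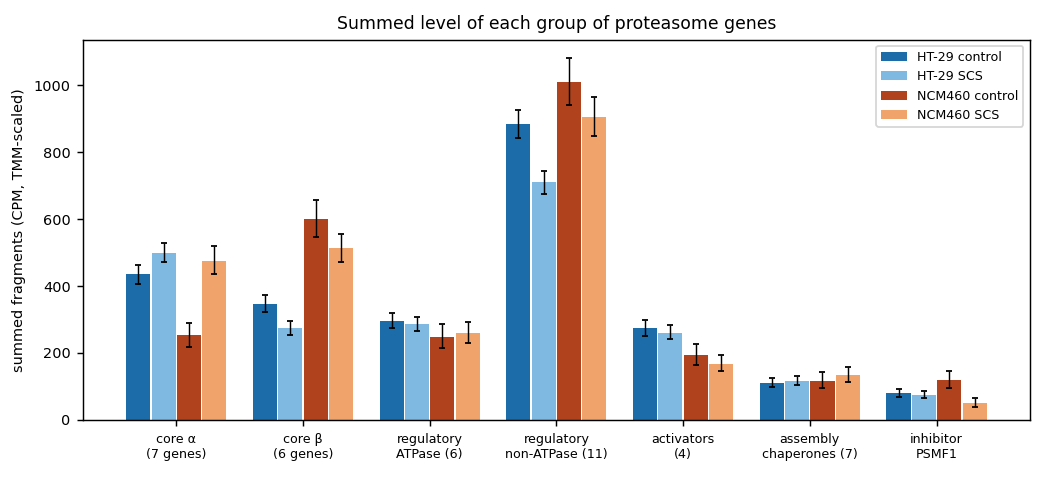
Summed fragments of each group of proteasome genes per library, as CPM on TMM-scaled library sizes, with exact Poisson 95% intervals as error bars (axis from 0, 1 library per condition). The α ring stands at 253 CPM in the NCM460 control and 476 with SCS, the β ring at 600 and 512. PSMA1, PSMA2 and PSMA6 in the α ring and PSMB5 in the β ring share their values with other genes. With total counts only, the β ring is higher and not lower with SCS in NCM460 cells.

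The sum of the β ring relative to the α ring differed between the lines without SCS. The α ring had 889 fragments in the HT-29 control and 197 in the NCM460 control, 1.72-fold higher in HT-29 cells (1.47 to 2.01). PSMA1, PSMA2 and PSMA6, which share values with other genes, gave 276, 93 and 89 of the 889 and 62, 18 and 46 of the 197. The β ring had 708 and 467, 0.577-fold (0.513 to 0.650), which became a log2 value of 0.30 by total counts only. The activators had 560 and 150 fragments, 1.42-fold (1.18 to 1.71), and the assembly chaperones 227 and 91, a log2 value of -0.07 (-0.43 to 0.29). By total counts only, the log2 values of the α ring, the activators and the chaperones were 1.88, 1.60 and 1.02.

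The median of the members with the promoter letters shown above lay below that of the others in HT-29 cells and above it in NCM460 cells. No test was made, and single genes overlapped. PSMD9, with a match, was the highest member in HT-29 cells (0.80), and PSME1, also with a match, fell in NCM460 cells (-0.996). In HT-29 cells the median log2 fold change was -0.33 over the 12 genes with a match and -0.07 over the 26 without. Transcript-adjusted, these medians were -0.25 and -0.07. In NCM460 cells it was 0.62 and 0.25, or 0.47 and 0.00 transcript-adjusted.

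The immunoproteasome subunits, which replace the catalytic subunits after interferon, were also measured. PSMB8 rose with SCS in HT-29 cells, with 24, 51, 0 and 1 fragments (0.81, 0.13 to 1.62). PSMB9, listed with the values of PSMB8-AS1, had 1, 8, 2 and 1 fragments, and PSMB10, listed with those of CTRL, 45, 64, 10 and 20. Neither was called in either line, and PSMB10 was called higher in NCM460 cells only transcript-adjusted (1.11, 0.01 to 2.43). PSMB8 and PSMB9 were at or under 3 fragments in both NCM460 libraries, so their response in this line was not measurable at this depth.

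Further genes of proteasome assembly, regulation and recycling were taken as a list of 16, of which 13 were tested. In HT-29 cells 4 rose and none fell, where 16.8% and 14.8% of all loci did. Transcript-adjusted, 4 rose and 1 fell, where 16.2% and 14.3% of loci did. In NCM460 cells 2 rose and 2 fell, where 15.3% and 13.7% of loci did. Transcript-adjusted, none rose and 1 fell, where 6.6% and 5.5% of loci did. NFE2L1, the transcription factor named above, rose in HT-29 cells from 313 to 1200 fragments (1.70, 1.53 to 1.89) and had 171 and 136 in NCM460 cells, where it fell by 0.79 (-1.14 to -0.47), a call lost transcript-adjusted (-0.34). It is listed with the values of AC004477.1. NGLY1, which deglycosylates NFE2L1, rose in HT-29 cells from 10 to 32 fragments (1.30, 0.39 to 2.64), and AKIRIN2, which imports proteasomes into the nucleus, from 10 to 35 (1.42, 0.53 to 2.75). In NCM460 cells NGLY1 had 11 and 19 and AKIRIN2 24 and 30 fragments, neither called. UCHL5, a deubiquitinase of the regulatory particle, had 50, 44, 3 and 26 fragments and rose in NCM460 cells (2.13, 0.94 to 5.01), and POMP, the maturation factor of the core, had 87, 113, 15 and 41 (0.90, 0.09 to 1.94). Both lost the call transcript-adjusted, at 0.94 and -0.29. In the same HT-29 libraries 2 of 43 proteasome genes rose (4.65%), where 16.8% of all loci did, and both share their values with another gene. NFE2L1 protein was not measured, and a link between NFE2L1 and the members was not tested.

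Of 20 tested genes of ubiquitin conjugation and shuttling, 3 rose and 1 fell in HT-29 cells, beside 16.8% and 14.8% of all loci, and 5 rose and 7 fell in NCM460 cells, beside 15.3% and 13.7%. Transcript-adjusted, 3 rose and none fell in HT-29 cells, where 16.2% and 14.3% of loci did. So adjusted, none rose and 3 fell in NCM460 cells, where 6.6% and 5.5% of loci did. SQSTM1, an autophagy receptor that binds ubiquitin, rose in HT-29 cells from 561 to 2307 fragments (1.80, 1.67 to 1.94) and had 89 and 96 in NCM460 cells (-0.36, -0.80 to 0.07). UBA6, a ubiquitin-activating enzyme, had 89, 140, 10 and 38 fragments and rose in NCM460 cells (1.31, 0.42 to 2.62). RPS27A, a ubiquitin precursor with near-identical copies, had 778, 821, 134 and 391 (1.06, 0.78 to 1.37). The conjugating enzymes UBE2K, with 208, 191, 17 and 48 (0.96, 0.20 to 1.92), and UBE2D3, with 301, 444, 36 and 99 (0.95, 0.42 to 1.58), rose in NCM460 cells too. None of these 4 was called in NCM460 cells transcript-adjusted, at 0.15, 0.54, -0.18 and -0.02.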

How the data were processed

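RNA-seq was analysed from 4 libraries, 1 per condition. Per the labels, libraries were made with a NEBNext Ultra kit, and the submitters' processing notes name cutadapt 1.9.1, Bowtie2, HTSeq 0.6.1 and the build hg 19. The coordinates of the table are those of GRCh38 (89.6% of loci had the start and end of GENCODE 29). The authors used Cuffdiff for differential expression. Whether counting used strand is not given in the sources used here.

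The authors deposited, for each library, a count column that is a scaled signal and a column of FPKM. The design had assumed whole counts. Each fragment was worth 0.686, 0.577, 2.04 and 1.33 in the deposited signal, and division gave whole numbers for 99.8% to 99.9% of values (tolerance 0.05). Rows with no gene name held at most 0.0352% of fragments and were left out. Adjacent rows with the same 8 values were merged into 18650 loci, 1812 with more than 1 gene.

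Fragments were scaled by TMM factors (edgeR 4.0.16; 1.24, 1.50, 0.578 and 0.935). Each interval comes from the exact Clopper-Pearson limits on how the fragments of a locus divide between both libraries. A count test needs replicates, so none was made, and a call compares libraries rather than conditions. GC trends were lowess fits (span 0.3) on the longest protein-coding transcript or, added later, its coding sequence. Scripts were checked on simulated counts. Other alternatives were DESeq2 1.42.0 size factors, nuclear or total counts only, 0.5 as prior count, a mean of at least 5 CPM, no filter, thinning to equal nuclear depth, the deposited FPKM (pseudocount of 1), leaving out members that share values, and a fold of 2.

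The members and lists were chosen with earlier results of these data known. Values in the 4 libraries are given for every member called with SCS, the catalytic subunits, the highest and lowest member of each group by FPKM or fold change, members that share values, and at most 5 called genes of each list with a mean of at least 10 CPM, beside the immunoproteasome subunits.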

Additional observations from a re-analysis of the deposited data

How the results depend on the processing

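No paired analysis was possible because each condition has 1 library. In HT-29 cells the 2 members called higher and 4 lower became 1 and 7 with nuclear totals only (median -0.26), and 8 and 0 with total counts only (median 0.15). Of all loci, 1507 were called higher and 2308 lower of 13330 with nuclear totals only, and 3149 and 1116 of 12658 with total counts only. The members called were 0 and 0 at a fold of 2, beside 1225 and 1113 of 12168 loci. Transcript-adjusted 2 members were lower, beside 14.3% of loci. After thinning to equal nuclear depth 1 was higher (median -0.19), beside 1303 of 12586 loci, and coding-adjusted 1 was, beside 17.8%. By FPKM 1 was also higher, beside 2815 of 12168 loci. This was PSMC6 (0.77), not called before, while PSMA1 and PSMD9 lost their calls, and PSMG4 (-0.65) was lower in place of PSMD2. Without the members that share values, 0 were higher. In NCM460 cells the 12 and 5 became 23 and 0 with total counts only (median 0.88), 7 higher transcript-adjusted (median 0.13) and 2 higher coding-adjusted (median 0.024). Of all loci, 3944 were called higher and 248 lower of 12096 with total counts only. The shares of loci called higher were 6.6% transcript-adjusted and 7.71% coding-adjusted. Lower calls of members were 3 with nuclear totals only (median 0.47), 8 by FPKM (median 0.10) and 1 at a fold of 2. These stand beside 1236 of 13106, 3195 of 12657 and 988 of 12657 loci. The median of the members was 0.23 with DESeq2 size factors and 0.23 after thinning. Between the lines the 17 and 9 became 30 and 0 with total counts only (median 1.28), beside 6327 and 1106 of 12467 loci. Members called higher were 9 transcript-adjusted, 6 coding-adjusted (median -0.031) and 11 after thinning (median 0.095). These stand beside 20.5% and 22.7% of loci, and 2769 of 13975 after thinning. The median of the members was 0.11 with DESeq2 size factors, 0.53 with nuclear totals only, 0.056 by FPKM and 0.36 without members that share values. Called values that changed sign were PSMC4 (0.069, total counts only) and PSMA1 (-0.17, coding-adjusted) in NCM460 cells. Between the lines they were PSMB2 (0.15) and PSMB6 (0.0035) by total counts only, PSMA5 (-0.43) and PSMA2 (-0.23) transcript-adjusted, and PSMA1 (-0.39), PSMD14 (-0.26) and PSMA2 (-0.15) coding-adjusted. The cause of these changes was not tested. Of the calls, 0 of 6 in HT-29 cells, 2 of 17 in NCM460 cells (PSMA7, PSMD1) and 5 of 26 between the lines held in all 8 settings run for single genes.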
